A study of Mus musculus with 4 samples.

Results

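The genes described here encode the nuclear subunits of complexes III, IV and V of the mitochondrial respiratory chain, together with cytochrome c. Members were all rows of the deposited table whose symbol starts with Uqcr, with Cox followed by a digit from 4 to 8, or with Atp5, plus Cyc1 and Cycs, and no pseudogene symbol had to be dropped. The rule gave 44 of 24784 genes: 9 of complex III, 1 for cytochrome c, 18 of complex IV and 16 of complex V. The rule reads gene symbols alone, but it was chosen with earlier results of these data known. Polyadenylated RNA had been sequenced from tumour-associated macrophages sorted out of tumours in the liver of male mice, 6 to 8 weeks old, whose treatment label names Hepa 1-6, a mouse hepatoma line. Of the 4 libraries, 2 came from mice with the genotype label Control (titles WT) and 2 from mice with the genotype label OXCT1mKO (titles KO). The strain, the alleles, any Cre driver and any pooling of animals are unknown from the labels. The labels do not say that the libraries of a group came from separate animals, so each p-value reflects the spread among these 4 libraries alone, which may be technical.

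Complex III takes electrons from ubiquinol and passes them to cytochrome c, a small soluble carrier that hands them to complex IV, the cytochrome c oxidase, where oxygen is reduced to water. Both complexes pump protons across the inner mitochondrial membrane, and complex V, the ATP synthase, uses the returning protons to turn a ring of c subunits and make ATP. In macrophages the balance between respiration and glycolysis is known to shift with the state of activation. Subunits of complexes III to V that are encoded in mitochondrial DNA were not analysed here.

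Promoter windows are shown for 4 members at the outset, because the c ring genes below are a set of paralogs that fell together and Cox6a1 had the highest level of all members. Each window holds 300 bases of build GRCm38.p6 from RefSeq, 250 before and 50 after the start of the gene, 5′ to 3′ on the strand of the gene. Capitals mark matches on either strand to GCGCA followed by any base and GCGC, the core recognised by nuclear respiratory factor NRF1, to CCGGAAG, recognised by GABPA and other ETS factors, to AAGATGGC, recognised by YY1, or to CCAAT, recognised by NF-Y. The windows are chr11:96075582-96075881 for Atp5g1, chr15:102670998-102671297 for Atp5g2, chr2:73911277-73911576 for Atp5g3 and chr5:115348909-115349208 for Cox6a1, all on the minus strand.
Atp5g1: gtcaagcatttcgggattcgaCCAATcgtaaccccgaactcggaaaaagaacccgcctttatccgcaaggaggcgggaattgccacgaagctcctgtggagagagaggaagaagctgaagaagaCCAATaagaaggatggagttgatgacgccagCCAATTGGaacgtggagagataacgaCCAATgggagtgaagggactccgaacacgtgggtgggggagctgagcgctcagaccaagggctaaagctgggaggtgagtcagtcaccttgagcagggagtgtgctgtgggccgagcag
Atp5g2: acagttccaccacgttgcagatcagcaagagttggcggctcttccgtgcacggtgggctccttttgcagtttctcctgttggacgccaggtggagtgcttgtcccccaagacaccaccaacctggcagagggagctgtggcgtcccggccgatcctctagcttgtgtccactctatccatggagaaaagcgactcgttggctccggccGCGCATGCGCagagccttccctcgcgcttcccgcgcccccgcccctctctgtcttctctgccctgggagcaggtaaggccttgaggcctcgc
Atp5g3: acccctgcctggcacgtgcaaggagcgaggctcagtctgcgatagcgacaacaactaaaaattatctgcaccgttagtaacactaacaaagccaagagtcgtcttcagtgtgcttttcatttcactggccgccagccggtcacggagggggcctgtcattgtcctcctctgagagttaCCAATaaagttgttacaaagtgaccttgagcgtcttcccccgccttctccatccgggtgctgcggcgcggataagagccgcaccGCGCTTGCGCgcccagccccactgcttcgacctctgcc
Cox6a1: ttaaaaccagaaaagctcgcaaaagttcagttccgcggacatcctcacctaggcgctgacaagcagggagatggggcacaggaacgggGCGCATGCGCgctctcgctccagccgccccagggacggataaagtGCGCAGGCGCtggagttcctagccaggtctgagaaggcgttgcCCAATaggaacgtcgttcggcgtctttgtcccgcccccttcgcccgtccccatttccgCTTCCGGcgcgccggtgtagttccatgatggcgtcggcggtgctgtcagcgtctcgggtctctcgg
The c ring genes differ in these matches. The Atp5g1 window holds 5 CCAAT matches, of which a pair overlaps on opposite strands, and no match to the other motifs. Atp5g2 holds an NRF1 match beginning 42 bases before the start and no CCAAT, while Atp5g3 holds a CCAAT beginning 72 bases before the start and an NRF1 match just after the start. In Cox6a1, NRF1 matches begin 162 and 117 bases before the start, a CCAAT 74 bases and an ETS match 16 bases before it. RefSeq windows were matched for 34 of the 44 members, 2 of them through a synonym. No window was matched for Cyc1, Uqcrb, Uqcrc2, Uqcrq, Cox4i1, Cox4i2, Cox6a2, Cox6c, Cox8c and Atp5a1. Among 34 windows of 31 tested members, some of which have more than 1 window, 23.5% held the NRF1 motif, against 9.62% of the 12141 windows of tested genes and 4.60% of all 32851 windows. The ETS motif was in 29.4% of member windows, 17.3% of those of tested genes and 8.86% of all. CCAAT was in 52.9%, 37.4% and 37.4%, and the YY1 motif in 8.82%, 4.31% and 2.75%. TATAAA, the core of a TATA box, was in 2.94%, 7.51% and 13.6%. These matches are letters in a window and not measured binding. The motifs and the windows printed were chosen with the values of the genes known.

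Levels were deposited as RPKM, read numbers scaled for gene length and library size. Macrophage identity was checked with 10 fixed markers, among them Adgre1, Csf1r, Cd68 and the C1q chains, and all 10 were above 0 in every library. The libraries held RNA of other cells too, as markers of T cells, hepatocytes, hepatoma cells and endothelium were also above 0. Oxct1, the gene named in the genotype label, encodes the mitochondrial enzyme that activates acetoacetate. It stood at 19.3 and 20.3 RPKM in the controls against 14.7 and 15.4 RPKM in OXCT1mKO. It was lower by a log2 fold change of -0.37 ± 0.09 (SE, limma adjusted p 0.0346), a size inside the range of the respiratory subunits below. The call was lost without control 2 (limma adjusted p 0.0559) and with every library scaled to the same RPKM sum, globin genes left out (limma adjusted p 0.0627), here called equal sums.

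Subunit genes of all 3 complexes were lower in the OXCT1mKO libraries. The 44 members together summed to 6804 and 6858 RPKM in the controls against 4719 and 4665 RPKM in OXCT1mKO, or 1.80% and 1.93% against 1.44% and 1.44% of each library's RPKM sum. A gene was tested where its mean over the libraries was at least 1 RPKM, which 39 members reached and 5 (Cox6a2, Cox6b2, Cox7b2, Cox8b and Cox8c) did not. Fold changes compare OXCT1mKO with control on the log2(RPKM + 1) scale, and a gene is said to have fallen where the limma adjusted p over all tested genes was under 0.05. Of the 39 tested members, 27 fell and 0 rose, while 16.4% of the 12523 tested genes fell and 16.4% rose, 32.8% in either direction. All 39 had a fold change below 0, as did 49.7% of all tested genes, with a median of -0.46, where the median of all tested genes was 0.00. Both OXCT1mKO libraries lay below both controls for 36 of the 39, as for 37.0% of all tested genes. The reverse order held for 0 members and for 37.6% of all tested genes. These calls rest on having 2 OXCT1mKO libraries. Without OXCT1mKO 1 or OXCT1mKO 2 the count was 0 (22 and 21 members at an unadjusted p under 0.05), while the median was -0.50 and -0.45. Of the 27 calls, 18 were also made without either control, and 9 were lost without control 1 or control 2 (Atp5d, Atp5e, Atp5f1, Cox5a, Cox7a2l, Cox8a, Cyc1, Uqcrb and Uqcrfs1). In every alternative that kept both OXCT1mKO libraries, 15 were made: all 3 c ring genes, Atp5j2, Atp5l, Atp5o, Cox4i1, Cox5b, Cox6b1, Cox6c, Cox7a2, Cox7c, Cycs, Uqcr10 and Uqcrq.

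**Figure D1:**
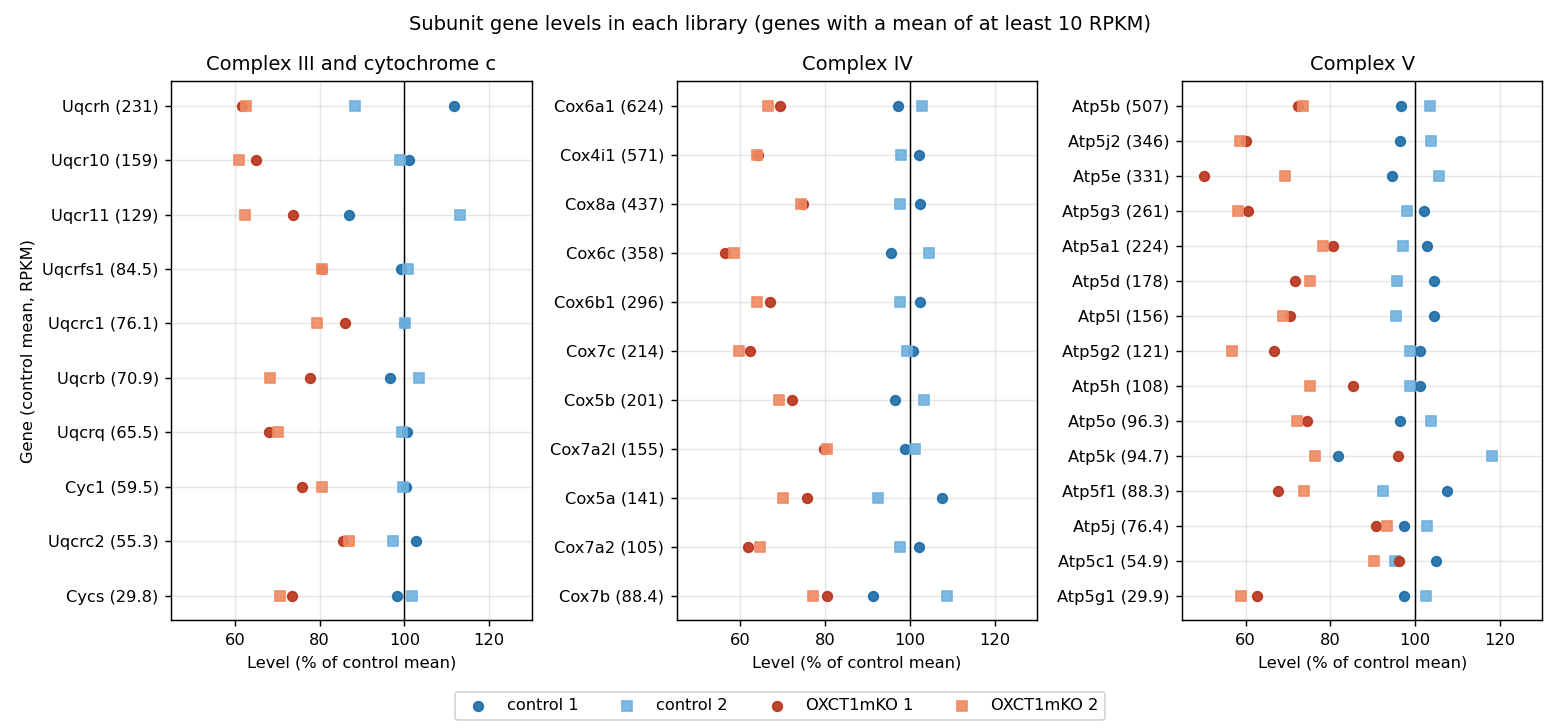
Level of each subunit gene with a mean of at least 10 RPKM in each library, as a percentage of that gene's control mean (x axis), with the control mean in RPKM beside the gene name (y axis). Circles and squares are libraries 1 and 2, blue for control and red or orange for OXCT1mKO. For 34 of the 36 genes both OXCT1mKO points lie left of both control points, an order seen in 37.0% of all tested genes.

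Among the 36 members with a mean of at least 10 RPKM, single OXCT1mKO libraries stood at 50.2% to 96.2% of the control mean, with a median of 71.1%. Their mean levels over the 4 libraries ranged from 24.0 RPKM (Atp5g1) to 524 RPKM (Cox6a1), and the cutoff of 10 RPKM was set after the values were seen. Estimated from the steps between the lowest values, these genes had between 856 and 50623 reads per library, so counting error in these genes is limited to a few percent of a value, if the estimate holds. Summed levels of several lists of cell type markers differed between the groups as well. Calls among markers stand beside 16.4% of all tested genes that fell and 16.4% that rose. Other sums overlapped between the groups. Hepatocyte markers were at 604 and 514 RPKM in the controls against 735 and 490 RPKM in OXCT1mKO. B cell markers were at 15.2 and 65.6 against 35.3 and 38.0 RPKM, and stellate cell markers at 96.8 and 70.3 against 81.1 and 93.5 RPKM. The summed level of 9 T cell markers was 261 and 171 RPKM in the controls against 55.1 and 99.6 RPKM in OXCT1mKO, and 5 of the 9 fell. That of 8 hepatoma markers was 739 and 1000 against 569 and 515 RPKM, with 3 of 7 tested lower, and that of 8 pancreatic acinar markers 53.4 and 39.4 against 5.69 and 4.14 RPKM, with 8 of 8 lower. The macrophage markers summed to 1538 and 882 RPKM in the controls against 1741 and 1926 RPKM in OXCT1mKO, with 6 of 10 higher. Kupffer cell markers were at 35.7 and 39.3 against 466 and 279 RPKM (7 of 8 higher), and endothelial markers at 684 and 813 against 1352 and 1204 RPKM (7 of 8 higher). Single libraries stood apart as well. Erythroid markers summed to 24384 RPKM in control 1 against 846 in control 2 and 330 and 309 RPKM in OXCT1mKO, which bears on the shares of the RPKM sum above. Neutrophil markers summed to 155 and 1255 RPKM in the controls against 568 and 385 RPKM. The part of these shifts in the fall of the subunit genes was not tested. In bulk RNA, a change in the number of cells of a type and a change in RNA per cell cannot be told apart. That holds for the markers as for the subunit genes.

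Complex III comes first among these in the path of electrons. Of its 9 subunit genes 6 fell, against 16.4% of all tested genes, and the median fold change was -0.45. Both OXCT1mKO libraries lay below both controls for all 9, as for 37.0% of all tested genes. The summed level of the 9 genes was 941 and 920 RPKM in the controls against 666 and 640 RPKM in OXCT1mKO. The median was -0.24 for the 2 core subunits, -0.33 for the 2 redox subunits and -0.54 for the 5 accessory ones, a difference between parts that was not tested. Uqcrc1, core protein 1, was at 76.1 and 76.2 RPKM in the controls against 65.4 and 60.4 RPKM in OXCT1mKO (-0.27 ± 0.09, limma adjusted p 0.0725). Uqcrc2, core protein 2, was at 56.8 and 53.7 against 47.2 and 48.1 RPKM (-0.21 ± 0.08, limma adjusted p 0.115). The core pair therefore lay below the controls in both OXCT1mKO libraries without passing the test.

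The redox subunits of complex III did pass the test with values as deposited, but neither call held with equal sums or with a replicate block. With equal sums the limma adjusted p was 0.0827 for Cyc1 and 0.106 for Uqcrfs1. Cyc1, the haem protein cytochrome c1, was at 59.7 and 59.4 RPKM in the controls against 45.1 and 48.0 RPKM in OXCT1mKO, and fell by 0.35 on the log2 scale (SE 0.09, limma adjusted p 0.0374). Uqcrfs1, the Rieske iron-sulphur protein, was at 83.7 and 85.2 against 67.9 and 68.0 RPKM (-0.31 ± 0.08, limma adjusted p 0.045). The OXCT1mKO libraries differed from each other by less than 3 RPKM for each gene. Of the 5 accessory subunits, which surround the core and have no redox centre, 4 fell, against 16.4% of all tested genes. Uqcrh, the acidic hinge protein that binds cytochrome c1, was at 258 and 204 RPKM in the controls against 142 and 145 RPKM in OXCT1mKO (-0.67 ± 0.14, limma adjusted p 0.0265). Uqcr10 was at 161 and 157 against 103 and 96.8 RPKM (-0.66 ± 0.09, limma adjusted p 0.013). Among the accessory genes these had the largest falls, and the controls of Uqcrh were spread further apart than those of Uqcr10.

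Uqcrq, which lies beside cytochrome b, was at 65.9 and 65.2 RPKM in the controls against 44.7 and 45.9 RPKM in OXCT1mKO (-0.52 ± 0.08, limma adjusted p 0.0156). Uqcrb, a ubiquinone-binding protein, was at 68.5 and 73.4 against 55.1 and 48.3 RPKM (-0.45 ± 0.11, limma adjusted p 0.0342). Both sets of libraries were separate for these genes. Uqcr11 was at 112 and 146 against 95.1 and 80.3 RPKM, and with a fold change of -0.54 ± 0.17 it missed the threshold (limma adjusted p 0.0621). Its control libraries lay further apart than its lower control lay from OXCT1mKO 1. The complex III count was 3 of 9 without control 2 or with each library scaled to an equal RPKM sum without globin, and 2 of 9 with no filter on low values.

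Cycs, the somatic cytochrome c that also triggers caspase activation when it leaves the mitochondrion, was at 29.3 and 30.3 RPKM in the controls against 21.9 and 21.1 RPKM in OXCT1mKO. It fell by 0.46 on the log2 scale (SE 0.08, limma adjusted p 0.0212), and the spread within each group was about 1 RPKM. Its level was well under that of most complex IV subunits on this per-length scale.

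**Figure D2:**
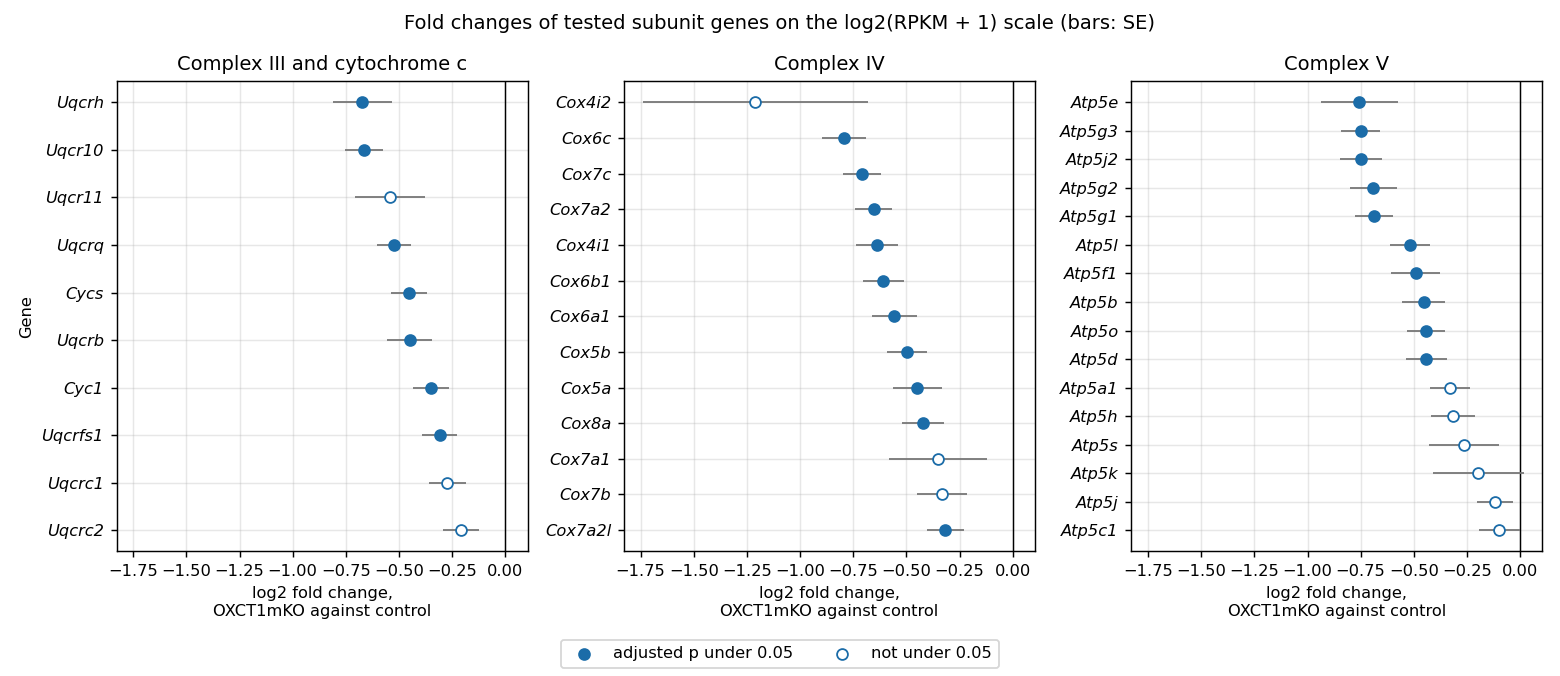
Log2 fold change of OXCT1mKO against control for each of the 39 tested subunit genes (x axis), sorted within complex (y axis), with bars for the SE. Filled points have a limma adjusted p under 0.05, and all 39 points lie left of 0.

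In complex IV 10 of 13 tested subunit genes fell, against 16.4% of all tested genes, with a median fold change of -0.56. Both OXCT1mKO libraries lay below both controls for 12 of the 13, as for 37.0% of all tested genes. The 18 genes of complex IV summed to 3193 and 3200 RPKM in the controls against 2176 and 2135 RPKM in OXCT1mKO. Subunits of this complex surround a catalytic core made from mitochondrial DNA, and several have tissue-specific isoforms. Cox6c had the largest fold change among the called genes, at 342 and 374 RPKM in the controls against 202 and 210 RPKM in OXCT1mKO (-0.79 ± 0.10, limma adjusted p 0.0129). Cox7c was at 216 and 213 against 134 and 128 RPKM (-0.71 ± 0.09, limma adjusted p 0.0128). Both groups were tight for these genes, and no OXCT1mKO library came near the lower control.

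Cox4i1, the ubiquitous isoform of the subunit that binds ATP and adjusts the rate of the enzyme, was at 583 and 558 RPKM in the controls against 367 and 365 RPKM in OXCT1mKO (-0.64 ± 0.10, limma adjusted p 0.0157). Cox6b1, on the side facing cytochrome c, was at 303 and 288 against 198 and 189 RPKM (-0.61 ± 0.09, limma adjusted p 0.0156). Cox6a1, which had the highest level of all members, was at 606 and 642 against 433 and 415 RPKM (-0.56 ± 0.11, limma adjusted p 0.0217). All 3 genes had separate groups. Cox5a (-0.45 ± 0.11), the zinc-binding Cox5b (-0.50 ± 0.09) and the small membrane subunit Cox8a (-0.42 ± 0.10) fell as well. Cox8a was at 447 and 427 RPKM in the controls against 327 and 324 RPKM in OXCT1mKO. Cox7b was at 80.7 and 96.1 against 71.2 and 68.2 RPKM and did not pass (-0.33 ± 0.12, limma adjusted p 0.0833), although both OXCT1mKO libraries lay below both controls.

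The subunit 7a genes did not move by the same amount. Cox7a2, the common isoform, was at 107 and 102 RPKM in the controls against 64.6 and 67.5 RPKM in OXCT1mKO (-0.65 ± 0.09, limma adjusted p 0.013). Cox7a2l, whose product can tether complex III to complex IV in supercomplexes, was at 154 and 157 against 124 and 125 RPKM (-0.32 ± 0.09, limma adjusted p 0.0469). Cox7a2l therefore made up a larger share of the 3 genes in OXCT1mKO, 64.7% and 64.2%, than in the controls, 58.0% and 59.9%, and the shares did not overlap. This difference between the genes has no test of its own, since with 2 libraries a group the smallest two-sided p of an exact permutation test is 0.33. Cox7a1, the isoform of heart, skeletal muscle and brown fat, was at 4.50 and 2.79 against 2.995 and 2.19 RPKM, and its groups overlapped (-0.35 ± 0.23, limma adjusted p 0.278).

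Other tissue isoforms were near or at 0. Cox4i2, the isoform of lung and of oxygen-sensing cells, was at 3.61 RPKM in control 1, 0.593 in control 2, 0.0165 in OXCT1mKO 1 and 0.348 in OXCT1mKO 2. The fold change, -1.21 ± 0.53, missed the threshold (limma adjusted p 0.136). It rests on control 1, without which the gene was too low to test, and without control 2 it passed, at -1.98. Cox6a2, of heart and skeletal muscle, was at 0.405 and 0.388 RPKM in the controls against 0.893 and 2.17 RPKM in OXCT1mKO, the reverse order of Cox6a1, and was too low for the test. Cox6b2, of testis, was at 1.07 and 1.03 against 1.22 and 0.557 RPKM, with overlapping groups. Cox8b was listed at 0 in 3 libraries and at 0.125 RPKM in OXCT1mKO 1, and Cox7b2 and Cox8c were listed at 0 in all 4. Markers of skeletal muscle were low too, with 8 genes summing to 1.53 to 2.92 RPKM per library and Myl1 at 0 throughout.

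**Figure D3:**
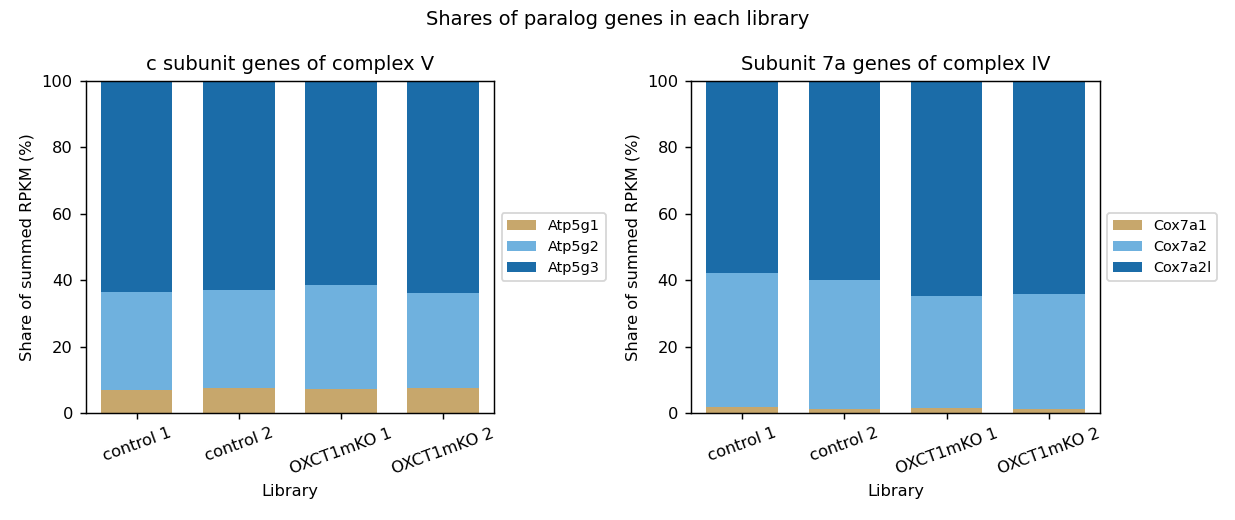
Share of the summed RPKM (y axis) taken by each gene of a paralog group in each library (x axis), for the c subunit genes of complex V and the subunit 7a genes of complex IV. The c subunit shares stay within a few percentage points across libraries, while Cox7a2l takes 58.0% and 59.9% in control and 64.7% and 64.2% in OXCT1mKO.

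Complex V is described by its parts, and differences between them were not tested. Of 16 subunit genes 10 fell, against 16.4% of all tested genes. The median fold change was -0.45, and values ran from -0.76 to -0.10. For 14 of the 16, both OXCT1mKO libraries lay below both controls, as for 37.0% of all tested genes. The summed level was 2640 and 2708 RPKM in the controls against 1855 and 1869 RPKM in OXCT1mKO. The c ring, the rotor in the membrane, is built of identical subunits from 3 genes that differ in their import sequences, and all 3 genes fell by similar amounts. Atp5g3 was at 266 and 256 RPKM in the controls against 158 and 152 RPKM in OXCT1mKO (-0.75 ± 0.09, limma adjusted p 0.0127). Atp5g2 was at 122 and 120 against 80.8 and 68.8 RPKM (-0.69 ± 0.11, limma adjusted p 0.0163). Atp5g1 was at 29.1 and 30.6 against 18.7 and 17.6 RPKM (-0.69 ± 0.09, limma adjusted p 0.0129). The groups were separate for each, and the shares of the genes hardly moved. Atp5g3 took 63.7% and 63.0% of the 3 in the controls and 61.3% and 63.7% in OXCT1mKO, and Atp5g1 took 6.97% to 7.55% in every library.

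In the catalytic head, Atp5b, the beta subunit that forms ATP, was at 490 and 524 RPKM in the controls against 367 and 372 RPKM in OXCT1mKO (-0.45 ± 0.10, limma adjusted p 0.0318). Atp5a1, its alpha partner, was at 230 and 217 against 180 and 175 RPKM and just missed the threshold (-0.33 ± 0.09, limma adjusted p 0.0519). Both genes had separate groups. The central stalk, which turns inside the head, was uneven. Atp5e, the epsilon subunit, was at 312 and 349 against 166 and 229 RPKM (-0.76 ± 0.18, limma adjusted p 0.0358). Its OXCT1mKO libraries lay further apart than its controls, and no call was made when any single library was left out (limma adjusted p 0.0623 to 0.161). Atp5d, the delta subunit, fell by 0.44 on the log2 scale (SE 0.10), a call lost without control 1 (limma adjusted p 0.0507). Atp5c1, the gamma subunit that forms the shaft, was at 57.5 and 52.2 against 52.8 and 49.5 RPKM, with overlapping groups and a fold change of -0.10 ± 0.10 (limma adjusted p 0.453).

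The peripheral stalk holds the head still against the turning rotor. While 16.4% of all tested genes fell, 2 of the 4 stalk genes did. These were Atp5f1, subunit b, at 94.9 and 81.6 RPKM in the controls against 59.6 and 65.2 RPKM in OXCT1mKO (-0.49 ± 0.11, limma adjusted p 0.0337), and Atp5o, the oligomycin sensitivity protein (-0.44 ± 0.09, limma adjusted p 0.0255). Atp5h, subunit d, was at 109 and 107 against 92.4 and 81.4 RPKM (-0.32 ± 0.10, limma adjusted p 0.07). Atp5j, coupling factor 6, was at 74.4 and 78.5 against 69.3 and 71.3 RPKM (-0.12 ± 0.09, limma adjusted p 0.323). All 4 stalk genes had separate groups, as had 37.0% of all tested genes in this direction. The gap for Atp5j was only a few RPKM. Among the accessory membrane subunits, Atp5j2, subunit f, was at 333 and 359 against 208 and 203 RPKM (-0.75 ± 0.10, limma adjusted p 0.013). Atp5l, subunit g, which helps the synthase pair into dimers, was at 163 and 149 against 110 and 107 RPKM (-0.52 ± 0.09, limma adjusted p 0.0205). Atp5k, subunit e of the same dimer interface, was at 77.5 and 112 against 90.9 and 72.4 RPKM, its groups overlapped, and its fold change was -0.20 ± 0.21 (limma adjusted p 0.499). Without control 2 that value was 0.06. Atp5s, factor B, which is not part of the purified synthase, was at 1.57 and 2.15 against 1.48 and 1.26 RPKM (-0.26 ± 0.16, limma adjusted p 0.262). The values of Atp5c1, Atp5j, Atp5k and Atp5e are given because they lay at the ends of the range, a choice made after their values were seen.

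The fall reached subunits of these complexes that have other symbols, and the inhibitor of the synthase. Of 6 symbols listed, 4 were in the deposited table, and all 4 fell, against 16.4% of all tested genes. The subunits were Ndufa4, now counted with complex IV (-0.77 ± 0.09), and Usmg5 (-0.66 ± 0.13) and 2010107E04Rik (-0.53 ± 0.10), small membrane subunits of complex V. Atpif1 is the inhibitor that stops the synthase from running backwards (-0.55 ± 0.11). Ndufa4 was at 233 and 243 RPKM in the controls against 140 and 138 RPKM in OXCT1mKO. Assembly factors were more mixed. For complex III, 3 of 5 tested factors fell, namely Uqcc1, Uqcc2 and Uqcc3, with a median of -0.46 (2 of 5 without either control in turn, and 1 with no filter), while the chaperone Bcs1l did not pass (-0.34 ± 0.11, limma adjusted p 0.0686). For complex IV the falls were led by Cox14 (-0.91 ± 0.11), at 114 and 97.7 against 54.0 and 57.0 RPKM, Cox20 (-0.52 ± 0.08) and Cmc2 (-0.84 ± 0.15). In that list 7 of 28 fell, against 16.4% of all tested genes, with a median of -0.27. That count was 4 without control 1, 11 without control 2, 4 with equal sums and 2 with no filter on low values. For complex V, 1 of 6 fell, a share close to the 16.4% of all tested genes, with a median of -0.24. It was Tmem70 (-0.59 ± 0.10), which helps the c ring form. Tmem242 (-0.29 ± 0.08, limma adjusted p 0.0507) and Atpaf2 (-0.41 ± 0.18, limma adjusted p 0.141) did not pass. With a mean of at least 5 RPKM Tmem242 fell (limma adjusted p 0.043), and without control 2 the fold change of Atpaf2 was -0.64. No assembly factor rose.

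Complex II, which feeds electrons to ubiquinone and pumps no protons, had 1 of 4 subunit genes lower, Sdhc (-0.37 ± 0.10, limma adjusted p 0.0436), and a median of -0.24. The count was 0 without control 1, with equal sums, with no variance trend and with no filter, and 2 without control 2, and 16.4% of all tested genes fell. Sdhd was at 74.8 and 55.1 against 47.9 and 48.1 RPKM and did not pass (-0.41 ± 0.16), nor did Sdhb (-0.11 ± 0.13). Of 7 genes for the carriers and pores that move ATP, ADP, phosphate and protons, 4 fell, against 16.4% of all tested genes. The 4 were the phosphate carrier Slc25a3 (-0.53 ± 0.11) and the outer membrane channels Vdac1 (-0.55 ± 0.08), Vdac2 (-0.55 ± 0.09) and Vdac3 (-0.41 ± 0.11). Slc25a5, the main ADP/ATP exchanger here, was at 186 and 182 RPKM in the controls against 187 and 186 RPKM in OXCT1mKO, with a fold change of 0.02 ± 0.09. Ucp2, an uncoupling protein family member of immune cells, was at 278 and 197 against 339 and 331 RPKM and did not pass (0.52 ± 0.19, limma adjusted p 0.0896). Its result depended on control 1, without which the fold change was 0.77.

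Regulators of mitochondrial gene expression were examined beside the subunits. Of 11 tested, 3 fell and 0 rose, with a median of -0.10, against 16.4% of all tested genes that fell. With equal RPKM sums 1 fell and 1 rose. Tfam, which packages and transcribes mitochondrial DNA, was at 8.19 and 8.14 RPKM in the controls against 5.32 and 5.34 RPKM in OXCT1mKO (-0.53 ± 0.09, limma adjusted p 0.0189). Its partner Tfb2m (-0.47 ± 0.12) and the growth regulator Myc, at 71.1 and 58.1 against 44.5 and 43.1 RPKM (-0.54 ± 0.12), fell too. With equal sums both calls were lost (limma adjusted p 0.0603 for Tfb2m and 0.0565 for Myc), as they were with no filter on low values. The call of Tfb2m was also lost with a replicate block (limma adjusted p 0.0665). Of the factors behind the motifs, Nrf1, Gabpa and Yy1 were examined and none passed the test, while NF-Y genes were not examined. Nrf1 was at 5.16 and 5.08 against 5.29 and 4.76 RPKM (-0.02 ± 0.11), Gabpa at 7.37 and 7.58 against 9.86 and 9.44 RPKM (0.33 ± 0.09, limma adjusted p 0.0515, and 0.0441 with a mean of at least 5 RPKM or 0.0283 with equal RPKM sums without globin, where it rose) and Yy1 at 20.8 and 27.0 against 26.1 and 26.4 RPKM (0.14 ± 0.14). Nrf1, Gabpa, Yy1, Slc25a5 and Ucp2 were picked out after their values were seen. Ppargc1a, a coactivator of mitochondrial biogenesis, was at 0.129 and 0.145 against 0.211 and 0.255 RPKM and too low to test.

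**Figure D4:**
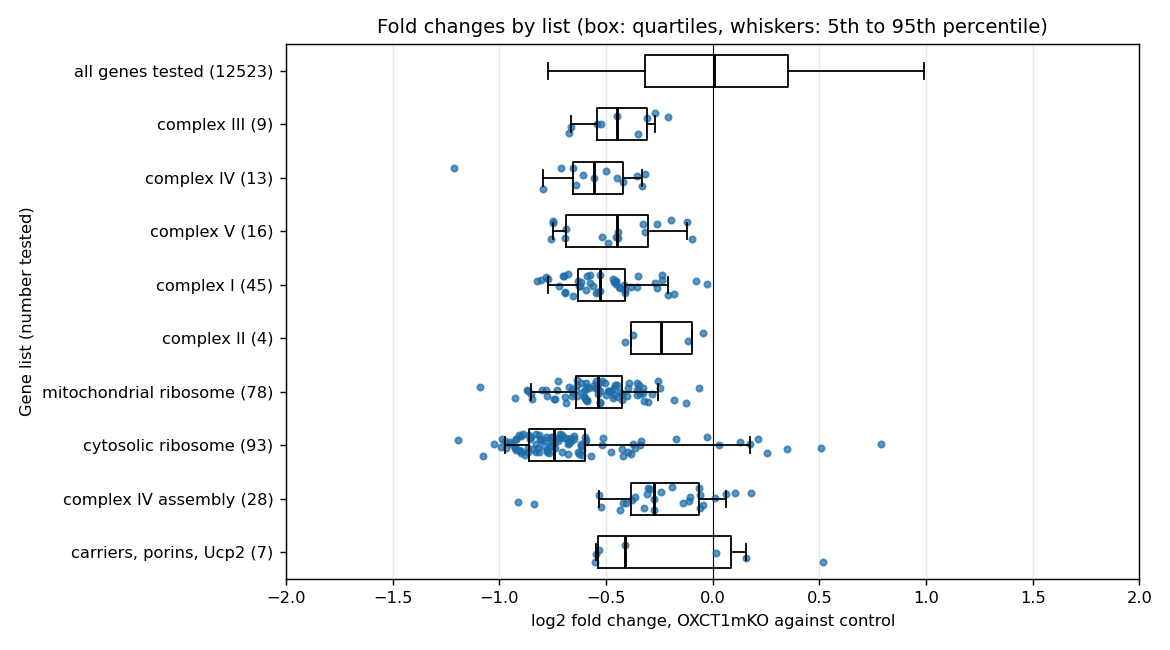
Log2 fold change of OXCT1mKO against control (x axis) for all tested genes and for each list (y axis, number tested in brackets), with a point per gene in the lists, boxes for quartiles and whiskers from the 5th to the 95th percentile. The medians of complexes III, IV and V (-0.45, -0.56 and -0.45) lie beside those of complex I (-0.53) and the mitochondrial ribosome (-0.54), and above that of the cytosolic ribosome (-0.74).

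Other large complexes were examined in the same way. Complex I had 31 of 45 tested subunit genes lower and a median of -0.53, and the mitochondrial ribosome 63 of 78 and -0.54. The cytosolic ribosome had 74 of 93 lower and 1 higher, with a median of -0.74. Of all tested genes, 16.4% fell and 16.4% rose. The complex I pattern includes Ndufa4. The members' median level was higher and their median exon length shorter than over all genes, with exceptions such as Atp5s (low level) and Atp5l (long). The median level of the 39 tested members was 97.9 RPKM, against 8.26 RPKM for all genes with an exon length, and 34 of the 39 were among the 10% of tested genes with the highest levels. Of the 1088 genes with a mean of at least 50 RPKM, a cutoff set after the values were seen, 38.0% fell and 14.5% rose, with a median of -0.25. The median summed exon length was 1756 bases for the members and 4202 bases for the 12334 tested genes with a length. Across those genes, Spearman's rho between length and fold change was 0.31, and across the 39 members it was 0.05. Between level and fold change it was -0.13 over all and -0.40 over the members, and as genes are not independent these are descriptions without a p. The part of level and length in the fall was not tested.

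**Figure D5:**
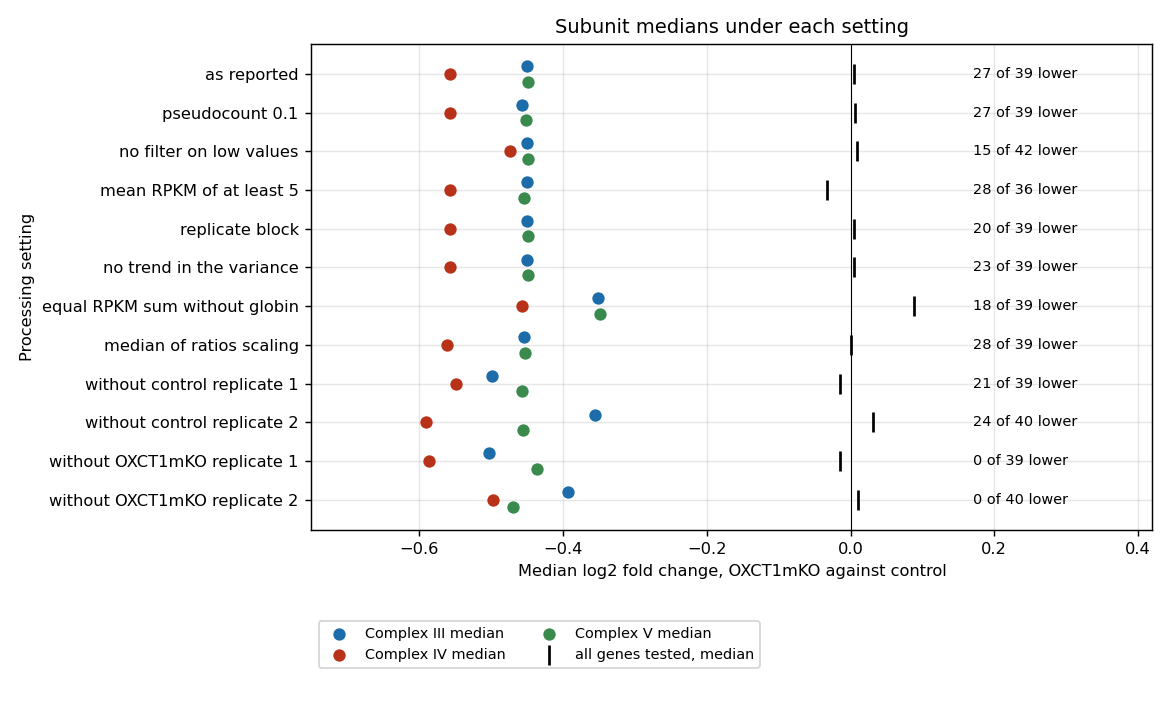
Median log2 fold change of the subunit genes of each complex (coloured points) and of all tested genes (black bars) under each processing setting (y axis), with the number of members that fell beside each. The medians of the 3 complexes stay below -0.3 under all 12 settings, while the number that fell runs from 0 to 28.

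Scaling moved the counts but not the direction. Both controls had larger RPKM sums than both OXCT1mKO libraries. With each library set to an equal sum without globin, the median of all tested genes was 0.09 and 64.8% of called genes were higher, against 50.1% as deposited. Under that scaling 18 of 39 members fell, the median was -0.36 and all 39 stayed below 0. With median of ratios scaling 28 fell, with a median of -0.46.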

How the data were processed

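RNA sequencing values of 4 libraries were analysed, 2 labelled control and 2 labelled OXCT1mKO, grouped by their titles. The authors deposited 1 table of RPKM values. Per the submitters' processing notes, STAR 2.10, R 4.0.5 and build mm10 were used, with no role stated. The read counter, strand setting, annotation and gene lengths are not stated in the labels or the table. RPKM values are not counts, so limma 3.58.1 under R 4.3.3 was run on log2(RPKM + 1) for every gene whose mean reached 1 RPKM. The fit had moderated variances with a trend and was checked on simulated data. P-values were two-sided and adjusted by the Benjamini-Hochberg method over 12523 genes, with a threshold of 0.05. The members, lists, motifs and tests were chosen with earlier results of these data known.

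Depth was estimated by multiplying low RPKM values by summed exon lengths of GENCODE M21 (GRCm38). The products gathered at whole multiples of a step, within 1%, that corresponds to about 22300000 and 22800000 reads for the controls and 21500000 and 20200000 for OXCT1mKO. This holds only where the authors' gene lengths match. Every gene of complex III, cytochrome c, the paralog groups and the low members was named, with the 5 genes of smallest p and the highest level in complexes IV and V, and the 3 of smallest p in each other list. Alternatives were other pseudocounts, filters, scalings and variance priors, a replicate block and leaving out each library. Genes picked out after their values were seen are named as such in the text. Protein sequences were not used here.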

Additional observations from a re-analysis of the deposited data

How the results depend on the processing

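Where tested, all of the 39 members had a fold change below 0 in every alternative except Atp5k without control 2. With a mean of at least 5 RPKM 36 of them were tested, and without control 1 38. Low members that entered the test in some alternatives are not counted here. Without a filter on low values, which adds genes to the adjustment, 1149 genes were lower and 1191 higher, and 15 members fell, 2 of complex III, 6 of complex IV and 6 of complex V, with 9 genes of the other pathway lists. Leaving out 1 library at a time gave 1 to 2055 genes lower and 0 to 2376 higher, 0 to 24 members lower, 0 to 5 in complex III, 0 to 10 in complex IV and 0 to 10 in complex V, and 0 to 26 lower and 0 to 1 higher in the other lists. The zeros came from leaving out either OXCT1mKO library, where the lone library was assumed to vary as the controls do. Whether libraries with the same replicate number were paired is unknown. The deviations of control 1 and OXCT1mKO 1 from their group means had a correlation of 0.05 over 12523 genes, which cannot exclude a pairing. With a replicate block, 20 members fell, 3 of them in complex III, and 15 genes of the other lists, and Oxct1 was lost (limma adjusted p 0.0577). With equal RPKM sums without globin, 3 fell in complex III, and 15 fell and 1 rose in the other lists. With a mean RPKM of at least 5, 1 rose in the other lists. Leaving out 1 library at a time gave log2 fold changes of -0.460 to 0.0644 for Atp5k, -0.242 to 0.0136 for Sdhb, -0.0876 to 0.0392 for Nrf1, -0.0366 to 0.323 for Yy1 and -0.000722 to 0.0318 for Slc25a5, each changing sign. Nrf1 was also above 0, at 0.0596, with equal sums. The cause of these changes was not tested.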
